A study of Drosophila melanogaster with 10 samples.

Results

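RNA of dissociated eye-antennal imaginal disc cells was set against RNA of whole larvae, in control animals of Drosophila melanogaster. The 4 arrays compared, of 10 in the series, were chosen by their titles: 2 arrays of control disc cells and 2 of control larvae, all labelled wild type. All animals were raised at 25 °C. The discs were dissected late in the third larval instar, about 500.0 to a sample, dissociated with warm trypsin, sorted by green fluorescence (GFP) and collected in TRIZOL at 100000 cells per ml. Each larval sample was 20 third-instar animals ground whole in the lysis buffer of a column kit. The labels do not give the GFP transgene, the fraction of the sort that was kept, the control strain, or whether the 2 samples of a group came from separate cultures, so a p-value here speaks of the spread between samples, which may be technical. Dissociation, sorting and RNA extraction differed together with the tissue, and their parts cannot be told apart from it. The same tissue difference in Jarid2 mutants (2 disc and 2 larval arrays, Jarid2MB00996 with the TM3 balancer per the labels) is given beside the controls where it differs; the other 2 arrays, of larvae labelled E(z) RNAi, entered the shared estimate of the spread, the choice of each gene's probe set and the quantile normalization.

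The eye-antennal disc is a sheet of epithelium set aside in the embryo, which grows through larval life and forms the eye, the antenna and part of the head capsule of the adult. Late in the third instar the morphogenetic furrow crosses its eye field. Dividing progenitors lie ahead of the furrow, and clusters of photoreceptor neurons assemble behind it. A set of nuclear factors, the retinal determination network, gives the eye field its identity, and homeodomain and other factors pattern the antennal field. A whole larva is made up mostly of tissues that the disc lacks: fat body, gut, salivary glands, body wall muscle, cuticle-secreting epidermis and, in males, a testis with meiotic cells. It also holds the discs themselves. In such bulk samples fewer cells of a type and less RNA per cell cannot be told apart.

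The values are log2 expression per probe set as the authors deposited them. A level below is such a log2 value on 1 array, and a difference is the mean of the disc arrays minus the mean of the larval arrays with its standard error (SE), so that 1 unit is a doubling. A gene was called at a Benjamini-Hochberg adjusted p under 0.05 in limma's test, fitted to all 18769 probe sets. The 2 control disc arrays had medians of 5.62 and 5.62 and the 2 control larval arrays 7.47 and 7.54, while upper quartiles lay between 9.41 and 9.47 on all 4. Replicate arrays correlated at 0.997 across probe sets in disc cells and at 0.983 in larvae. Since the medians differed, the scale between tissues is not settled for small differences. As deposited the median probe set difference was -0.23; quantile normalization of all arrays moved it to 0.44 (by 0.66) and median centring to 1.66 (by 1.88). Differences of at least 3 on the log2 scale (8-fold) of a called gene, termed large, are therefore given first, and each family or named gene whose direction turned under either scaling is marked as such.

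Of 11982 genes, 3991 (33.3%) were called higher in disc cells and 5522 (46.1%) higher in larvae. The arrays of the 2 tissues did not overlap for 10844 genes (90.5%), so lack of overlap was the usual state. Of the called probe sets 39.4% were higher in disc cells as deposited, 68.0% after quantile normalization and 83.2% after median centring. Large differences were uneven in number: 53 genes (0.442%) were higher in disc cells and 2231 (18.6%) in larvae. Counts of called and of large list members below are to be read beside these shares of all genes. Large differences were also uneven in size. The widest excess in disc cells was 5.47, of the zinc finger factor gene gl, and the widest excess in larvae 11.17, of the salivary glue gene Sgs4. Only 3 called genes were higher in disc cells by 5 or more, against 927 in larvae, and 0 against 262 passed 7. For 1037 (46.5%) of the 2231 genes the disc mean lay below the lower quartile of the disc arrays, close to the floor of the measurement, and for 6 (11.3%) of the 53 the larval mean did so in larvae. The measured sizes of those differences may understate them.

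Marker genes were read against the labels. All 7 eye disc markers and all 3 antennal markers were called higher in disc cells. Of the fat body, salivary gland, midgut and testis markers, 3, 4, 5 and 4 were measured, and every one was called higher in larvae. Summed on the linear scale, the fat body markers came to log2 values of 6.64 and 6.79 in disc cells and 16.20 and 16.21 in larvae, and the midgut markers to 6.99 and 6.90 in disc cells and 14.71 and 14.98 in larvae. The disc arrays thus carried the genes of their label and read low for those organs. Other marker lists with members called higher in disc cells were those of haemocytes (6 of 7), neurons (3 of 3 measured), trachea (2 of 3), glia (1 of 2) and muscle (1 of 4).

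**Figure D1:**
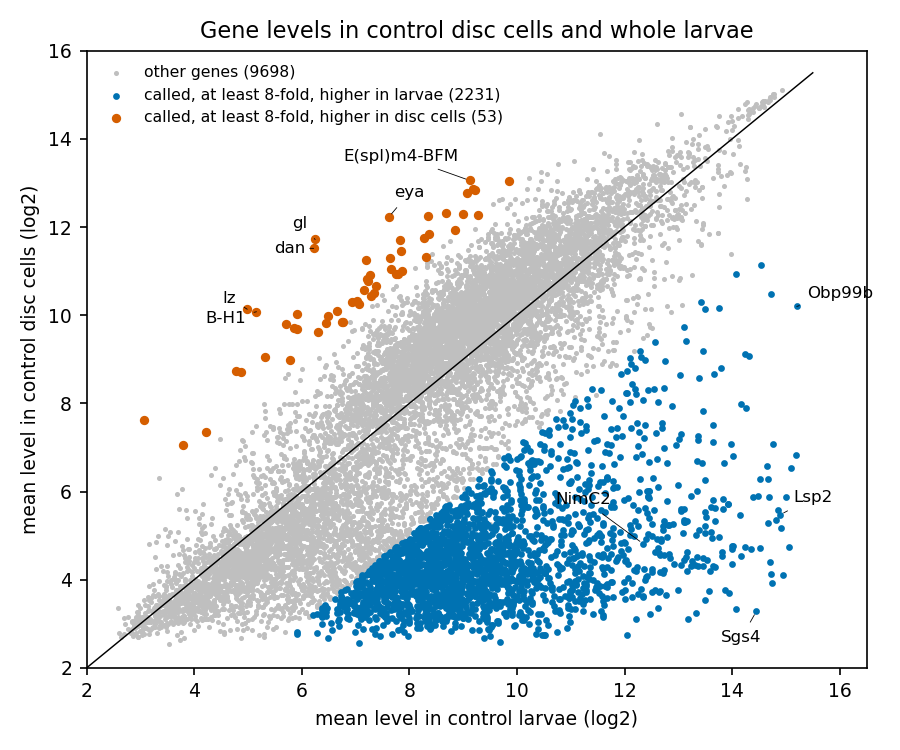
Mean log2 level of each of 11982 genes in the 2 control larval arrays (horizontal axis) and the 2 control disc arrays (vertical axis). Orange points are the 53 genes called and at least 8-fold higher in disc cells, blue points the 2231 higher in larvae, grey points all others, and the diagonal marks equal levels. Blue points fill the lower right corner, with larval levels up to about the top of the scale and low disc levels, and orange points stay nearer the diagonal.

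By roles assigned once the set was known, 27 of the 53 genes with a large excess in disc cells encode transcription factors or their partners; the share of such genes among all genes was not computed. Of the rest, 4 are components of Notch signalling, 4 are cell surface or adhesion proteins, 6 are neuronal or signalling proteins, 3 are blood cell genes, 5 are other named genes and 4 carry only a number. With lz, counted among the factors, 4 of the 53 belong to the haemocyte list. All 53 kept their direction as percentile ranks and all 53 were called after quantile normalization, where 47.8% of all genes were called on the disc side. They were chosen by size on these arrays, and quantile normalization moved the median probe set difference toward the disc side, by 0.66. Neither count is therefore a test of the 53. In Jarid2 mutants 45 of them were called in the same direction, beside 33.9% of all genes, 30 were large again (0.376% of all genes were), and 7 had the opposite sign. Those 7 were PPO1, PPO2, Nplp2, mthl6, CG15115, CG15550 and CG30087, described with the blood cell genes below. The threshold of 3 fell within a dense range. Just inside it were ed (3.01) and the Notch ligand gene Delta (3.00); just outside it were the forkhead gene jumu and aos, which encodes a secreted inhibitor of EGF receptor signalling, both at 2.97.

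Retinal determination genes were higher in disc cells in 8 of 9 measured cases, beside 33.3% of all genes, and the median difference was 2.07 beside -0.24 for all genes. The exception was tio, a zinc finger paralogue of tsh, at -0.21 ± 0.23 (adjusted p = 0.44), whose sign turned after quantile normalization and after median centring. The gene eya, which encodes a nuclear phosphatase and transcriptional coactivator, read 7.69 and 7.55 in the larval arrays and 12.20 and 12.25 in the disc arrays. Each pair of arrays lay within 0.2 of each other and the tissues were far apart, with a difference of 4.61 ± 0.11 (adjusted p = 1.8e-08), or 24.4-fold. Its partner so, a homeodomain protein, read 7.25 and 7.21 in larvae and 10.70 and 10.84 in disc cells, a difference of 3.54 ± 0.10 (adjusted p = 5.8e-08). The coregulator gene dac read 8.44 and 8.27 in larvae and 12.26 and 12.25 in disc cells, a difference of 3.90 ± 0.17 (adjusted p = 4.9e-07). For both genes the tissues were well separated. The 2 Pax6 genes at the head of the network differed by unlike amounts: toy rose from 8.55 and 8.18 to 11.85 and 11.82, a difference of 3.47 ± 0.14, and ey from 7.65 and 7.43 to 9.45 and 9.62, a difference of 1.99 ± 0.15. The so paralogue Optix (1.94 ± 0.15), the Pax gene eyg (2.07 ± 0.23) and the progenitor factor gene tsh (0.61 ± 0.15) had the smaller called differences.

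Antennal patterning genes were called higher in disc cells in 10 of 11 cases, with a median of 3.14, and 6 of the 11 were large. The leading member was dan, a pipsqueak-domain factor known in both eye and antenna, which read 6.33 and 6.11 in larvae and 11.48 and 11.55 in disc cells. The arrays of each tissue were close together and the difference was 5.30 ± 0.13 (adjusted p = 2.4e-08), or 39.3-fold. B-H1, a Bar homeodomain gene of the distal antenna and of certain photoreceptors, read 5.29 and 5.03 in larvae and 10.07 and 10.09 in disc cells. That was a difference of 4.92 ± 0.15 (adjusted p = 6.4e-08). Its neighbour B-H2 differed by 3.4 ± 0.11 and the dan paralogue danr by 3.48 ± 0.13. The bHLH-PAS factor gene ss, needed for antennal identity, read 5.82 and 5.61 in larvae and 9.86 and 9.76 in disc cells. Its difference was 4.10 ± 0.19 (adjusted p = 7.5e-07). Dll, the homeobox gene of the distal appendages, read 8.13 and 7.61 in larvae and 11.04 and 10.99 in disc cells, and the difference was 3.14 ± 0.26 (adjusted p = 1.8e-05). Other discs of the larva also use Dll. The LIM homeobox gene Lim1 (2.61 ± 0.26) and al (1.30 ± 0.15) had smaller called differences. The call of bab2 (1.14 ± 0.41, adjusted p = 0.036) was lost without either disc array (adjusted p = 0.16 and 0.060) and without larval array 2, where its difference was 0.54 (adjusted p = 0.22), as well as without either mutant larval array (adjusted p = 0.052) and with the 4 control arrays fitted alone (adjusted p = 0.085). The call of ct (1.04 ± 0.29, adjusted p = 0.012) was lost without disc array 2 (adjusted p = 0.065) and without larval array 2 (adjusted p = 0.074) and as the mean of its probe sets, at 0.51 (adjusted p = 0.14), and bab1 (0.21 ± 0.29, adjusted p = 0.53) was not called.

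The Hox genes of the head and anterior trunk, a list of 4 added after the values were seen, had a median of -0.39, which turned to 0.60 after quantile normalization and to 1.49 after median centring, so no direction is given for the list. Of the 4, 1 was called higher in disc cells and 2 in larvae, beside 33.3% and 46.1% of all genes. Dfd, which specifies maxillary structures that arise from the antennal disc, read 6.23 and 5.48 in larvae and 9.87 and 9.54 in disc cells. The disc arrays were far above the larval arrays, by 3.85 ± 0.26 (adjusted p = 6.9e-06), or 14.5-fold. Antp, the Hox gene of the thorax, read 8.71 and 8.08 in larvae and 4.59 and 4.97 in disc cells, and the difference was -3.61 ± 0.22 (adjusted p = 3.5e-06). Both disc arrays lay below both larval arrays on this probe set. The differences of the 3 Antp probe sets ranged from -3.61 to -0.26. Scr (-0.44 ± 0.43, adjusted p = 0.39) was not called, and its sign turned after quantile normalization and after median centring.

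**Figure D2:**
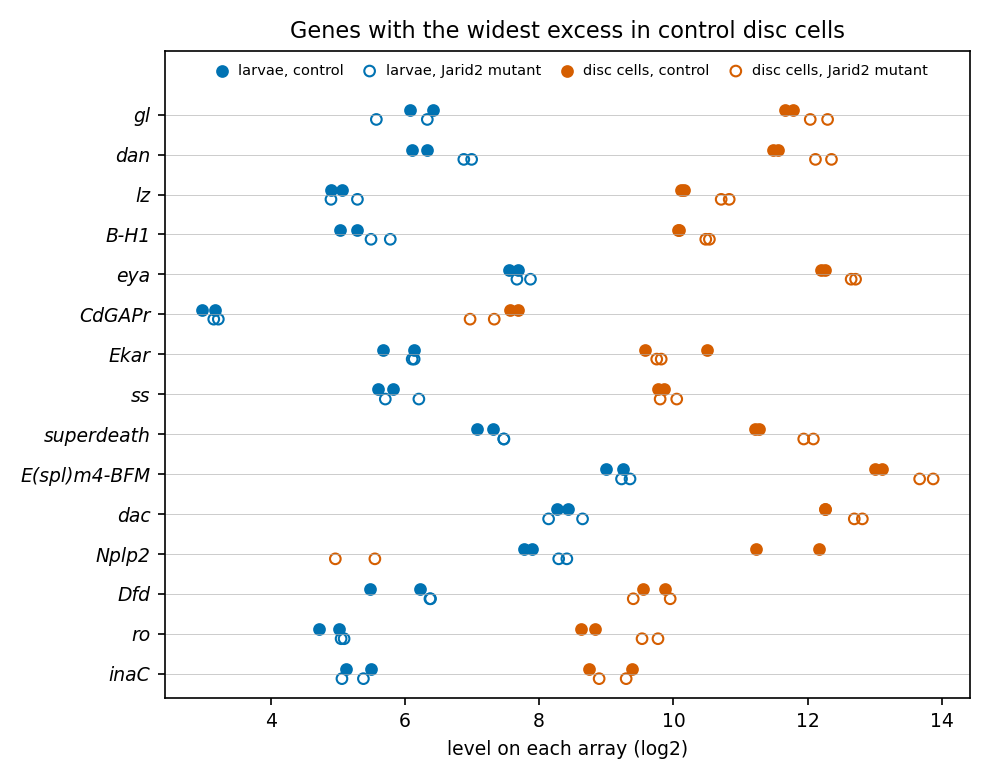
Log2 level of the 15 named genes with the widest excess in control disc cells on each array. Filled circles are control arrays and open circles Jarid2 mutant arrays, orange for disc cells and blue for larvae, with 2 arrays per group. For 14 of the 15 genes both open orange circles lie above all blue circles; for Nplp2 they lie below the larval arrays.

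Genes of photoreceptor specification were called higher in disc cells in 20 of 22 cases, with a median of 2.17. The widest disc excess of the whole comparison was that of gl, whose zinc finger protein directs photoreceptor differentiation behind the furrow. It read 6.42 and 6.08 in larvae and 11.66 and 11.78 in disc cells. The excess was 5.47 ± 0.24 (adjusted p = 6e-07), or 44.3-fold. The Runx gene lz, active in the cells of the eye field that are recruited late and also in crystal cells of the blood, read 5.07 and 4.90 in larvae and 10.16 and 10.11 in disc cells. Its disc arrays were alike and its difference was 5.15 ± 0.15 (adjusted p = 4.9e-08). Behind these came ro, a homeobox gene of early photoreceptors, which read 5.02 and 4.73 in larvae and 8.62 and 8.82 in disc cells, a difference of 3.85 ± 0.14 (adjusted p = 2.1e-07). The proneural gene ato, which founds each photoreceptor cluster in the furrow, read 7.77 and 7.56 in larvae and 11.02 and 11.08 in disc cells. That difference was 3.39 ± 0.15 (adjusted p = 5.8e-07). chp, a membrane protein of photoreceptor cells, read 7.15 and 6.71 in larvae and 9.59 and 11.02 in disc cells. The 2 disc arrays of chp differed by more than 1 unit, and both lay above the larval arrays (3.37 ± 0.40, adjusted p = 0.00012). EGF receptor signalling recruits the later photoreceptors. Its receptor gene Egfr (1.66 ± 0.16), its ligand gene spi (1.23 ± 0.12), the repressor gene aop (2.23 ± 0.42) and the inhibitor gene aos (2.97 ± 0.16) were all higher in disc cells. So were phyl (2.93 ± 0.17) and sina (1.07 ± 0.15), whose products act together in R7 and other photoreceptors, and the R7 receptor gene sev (1.03 ± 0.20) with its ligand gene boss (2.10 ± 0.15). The panneuronal RNA-binding protein gene elav differed by 2.55 ± 0.20 and the R8 factor gene sens by 1.48 ± 0.19. The exceptions were the ETS antagonist gene edl, at 0.06 ± 0.27 (adjusted p = 0.85), and pros, a homeodomain factor of R7 and cone cells, at -0.48 ± 0.16 (adjusted p = 0.023), which was the member called higher in larvae. Its sign turned after median centring, and its call was lost after quantile normalization (adjusted p = 0.50), without disc array 1 (adjusted p = 0.13) and without either larval array (adjusted p = 0.081 and 0.053).

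Notch target genes moved as a family, with 13 of 13 members of the E(spl) and Bearded families called higher in disc cells and a median of 2.79. These small genes are direct targets of Notch or of proneural proteins. E(spl)m4-BFM, a Bearded-family member, read 9.25 and 9.00 in larvae and 13 and 13.11 in disc cells. The difference was 3.93 ± 0.13 (adjusted p = 9.8e-08). Among the bHLH repressors, E(spl)m7-HLH differed by 3.70 ± 0.17, E(spl)mdelta-HLH by 3.61 ± 0.16, E(spl)m3-HLH by 3.20 ± 0.15, E(spl)m5-HLH by 2.95 ± 0.11 and E(spl)mbeta-HLH by 2.67 ± 0.15. The smallest excess was that of E(spl)m6-BFM, at 1.24 ± 0.23 (adjusted p = 0.0016). Components that act above these targets were also among the 53. The ligand gene Delta read 9.56 and 9.01 in larvae and 12.25 and 12.31 in disc cells (3.00 ± 0.21). The protease gene kuz, whose product cleaves Notch, read 7.45 and 6.96 in larvae and 10.83 and 10.83 in disc cells (3.62 ± 0.25), and neur, an E3 ligase needed for ligand endocytosis, read 6.24 and 6.35 in larvae and 9.72 and 9.51 in disc cells (3.32 ± 0.20). In each of the 3 the disc arrays lay above the larval arrays by more than 2 units.

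Of the other disc signalling genes 16 of 18 were called higher in disc cells and none was large, with a median of 1.5. The widest were the atypical cadherin gene ds (2.83 ± 0.19) and nkd, an inhibitor of Wnt signalling (2.78 ± 0.23), followed by fj (2.29 ± 0.15), a kinase that acts on ds. Morphogen genes were in the middle of the range, with hh at 2.18 ± 0.20 and dpp at 1.98 ± 0.20. The exceptions were the homeobox gene Dr (-1.25 ± 0.35) and the cytokine gene upd2 (-0.81 ± 0.15), both called higher in larvae and both turned positive after quantile normalization and after median centring. The call of Dr was lost without disc array 2 (adjusted p = 0.087) and without larval array 1 (adjusted p = 0.061). Genes of epithelial polarity and junctions were higher in disc cells in 16 of 16 cases (median 1.62). The cell surface genes among the 53 were rst, an immunoglobulin-type protein that sorts the cells between ommatidia (3.69 ± 0.18), the planar polarity cadherin gene stan (3.08 ± 0.18), ed (3.01 ± 0.26) and chp.

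Genes of growth formed the other side of the disc profile. Cell cycle and DNA replication genes were called higher in disc cells in 28 of 28 cases, with a median of 1.76 and a narrow range from 0.48 to 2.21. The helicase subunit gene Mcm6 read 9.75 and 9.50 in larvae and 11.85 and 11.82 in disc cells (2.21 ± 0.13, adjusted p = 3.5e-06), and the large subunit of ribonucleotide reductase, RnrL, 9.77 and 9.41 in larvae and 11.76 and 11.81 in disc cells (2.19 ± 0.14, adjusted p = 5.6e-06). Many larval tissues are polyploid and grow without division, and the discs divide by mitosis. Mitotic genes were within the same range: CycB differed by 2.16 ± 0.17, fzy, an activator of the anaphase-promoting complex, by 2.10 ± 0.11, and the chromosomal passenger gene Incenp by 2.19 ± 0.11. Polycomb and trithorax group genes were called higher in disc cells in 20 of 21 cases (median 1.54), with trr (2.52 ± 0.29) and trx (2.25 ± 0.15), both histone methyltransferases, at the top. E(z), the methyltransferase of Polycomb repressive complex 2, read 8.53 and 8.31 in larvae and 9.10 and 9.29 in disc cells (0.78 ± 0.15, adjusted p = 0.0016). Jarid2, a partner of that complex, was the exception: it read 9.63 and 9.48 in larvae and 10.14 and 10.10 in disc cells, and the difference of 0.57 ± 0.24 (adjusted p = 0.064) was not called. It was called after quantile normalization (adjusted p = 0.017), when the 4 control arrays were fitted alone (adjusted p = 0.013) and without either mutant disc array (adjusted p = 0.0043), with the same difference or a like one. In the arrays labelled Jarid2 mutant its level was 4.19 and 4.26 in larvae and 7.64 and 6.80 in disc cells, below all 4 control arrays. Mitochondrial ribosomal protein genes were called higher in disc cells in 64 of 69 cases and in larvae in 0, with a median of 0.82.

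Genes of neurons were divided. Of 18 neuronal differentiation genes 9 were called higher in disc cells and 5 in larvae, beside 33.3% and 46.1% of all genes. The median of 0.28 was a fraction of a doubling. After quantile normalization the counts were 15 and 1, beside 47.8% and 31.6% of all genes. The widest on the disc side was the microtubule-associated protein gene futsch. It read 6.22 and 6.75 in larvae and 9.83 and 10.12 in disc cells (3.49 ± 0.27, adjusted p = 1.3e-05). Another of its 3 probe sets had the opposite sign. Next were the cell adhesion gene Nrt (1.96 ± 0.21) and Appl, the fly homologue of the amyloid precursor protein gene (1.92 ± 0.28). The neuron markers elav, nSyb and brp were all called higher in disc cells as well. On the larval side was VAChT, the vesicular transporter of acetylcholine, at -1.71 ± 0.32 (adjusted p = 0.0017); it was not called after quantile normalization (adjusted p = 0.098) and its sign turned after median centring. On 16 of 18 genes of the list disc array 2 read above disc array 1. The median gap over the 18 was 0.39, and its part in the results was not tested. Proneural and neural progenitor genes were called higher in disc cells in 6 of 14 cases and in larvae in 3, with dpn, a bHLH repressor, at 2.96 ± 0.15. The disc counts of this list and of the glial list were not far from the 33.3% of all genes. Glial genes were called in disc cells in 4 of 8 cases, among them repo, the homeobox gene of nearly all lateral glia, which read 8.10 and 7.74 in larvae and 9.95 and 9.69 in disc cells (1.90 ± 0.23, adjusted p = 0.00015), and in larvae in 2.

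Phototransduction works in the finished photoreceptor. In a list of 16 phototransduction genes, added after the values were seen, 5 were called higher in disc cells and 7 in larvae, shares near the 33.3% and 46.1% of all genes, with 1 and 4 of them large (median 0.03; 0.98 after quantile normalization). The large difference on the disc side was that of inaC, the eye-specific protein kinase C, which read 5.50 and 5.13 in larvae and 8.75 and 9.38 in disc cells, a difference of 3.75 ± 0.25 (adjusted p = 5.7e-06), or 13.4-fold. The channel gene trp, whose product is held in the same signalling complex, was low in both tissues and read 4.50 and 4.12 in larvae and 4.15 and 4.34 in disc cells. The arrestin gene Arr1 read 7.47 and 7.85 in larvae and 4.47 and 4.04 in disc cells and was higher in larvae, by 3.4 ± 0.18. Larvae have a light-sensing organ of their own. Ekar, which encodes a kainate-type glutamate receptor, was among the highest of the 53 (4.12 ± 0.28).

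Blood cell genes were high in the control disc cells, and in this the mutants differed from the controls. Of 18 haemocyte genes 13 were called higher in control disc cells and 2 in larvae, with a median of 1.35. Without disc array 2 the counts were 10 and 4 and the median 0.96. The prophenoloxidase gene PPO1, a product of crystal cells, read 8.40 and 8.97 in control larvae and 11.42 and 13.21 in control disc cells. Both disc arrays were above the larval arrays, by 3.63 ± 0.69 (adjusted p = 0.0017), but they differed from each other by more than 1 unit. PPO2 read 8.76 and 9.24 in larvae and 11.32 and 13.25 in disc cells, a difference of 3.29 ± 0.71 (adjusted p = 0.0033). The plasmatocyte gene Hml, a clotting factor, read 9.66 and 10.21 in larvae and 11.19 and 12.44 in disc cells (1.88 ± 0.47, adjusted p = 0.0076). Collagen IV genes, which plasmatocytes and fat body secrete, were also higher in disc cells, with vkg at 1.81 ± 0.30 and Col4a1 at 1.71 ± 0.33. On 16 of the 18 genes disc array 2 read above disc array 1. The median gap over the 18 was 0.90, beside -0.01 for all genes. The levels of the 7 haemocyte marker genes, summed on the linear scale, came to log2 values of 13.9 and 14.9 in control disc cells and 12.8 and 13 in control larvae. The phagocytosis receptor gene NimC2 stood apart from the list, at 12.56 and 12.14 in larvae and 4.95 and 4.67 in disc cells. Its difference of -7.53 ± 0.22 (adjusted p = 5.8e-08) put it among the large larval genes.

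In the Jarid2 mutants the same comparison had the opposite direction, with a median of -3.65 over the 18 genes, and 12 of the 18 had a called difference between the genotypes, beside 3.66% of all genes. After quantile normalization 9 of the 18 had one. PPO1 read 10.75 and 10.16 in mutant larvae and 5.62 and 5.73 in mutant disc cells. The GATA factor gene srp, which governs blood cell fate, read 9.92 and 9.71 in control larvae, 10.41 and 10.77 in control disc cells and 3.74 and 4.24 in mutant disc cells. The mutant disc cells were the arrays that were low, and the summed marker level was 8.4 and 8.9 there. The control excess of these genes was thus not found in the mutants. Over all genes, 60 were large in disc cells without disc control array 1 and 50 without disc control array 2, in place of 53; 78 were without larval control array 1 and 44 without larval control array 2. The gene lz, although in the haemocyte list, followed the eye genes, at 10.16 and 10.11 in control disc cells and 10.71 and 10.83 in mutant ones. Among the 53, mthl6, a G protein-coupled receptor of the methuselah family, read 10.65 and 11.95 in control disc cells and 4.44 and 4.84 in mutant ones. Nplp2, from the neuropeptide-like precursor family and also in the haemocyte list, read 11.23 and 12.16 in control disc cells and 4.96 and 5.55 in mutant ones. CG15115, CG15550 and CG30087, which carry only numbers, were likewise low in the mutants: they read 8.56 and 8.91, 9.29 and 10.09 and 7.20 and 7.51 in control disc cells, and 4.42 and 4.84, 4.99 and 5.38 and 4.16 and 4.07 in mutant ones. The number of blood cells in the sorted samples is not given, and its part in these values was not tested.

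**Figure D3:**
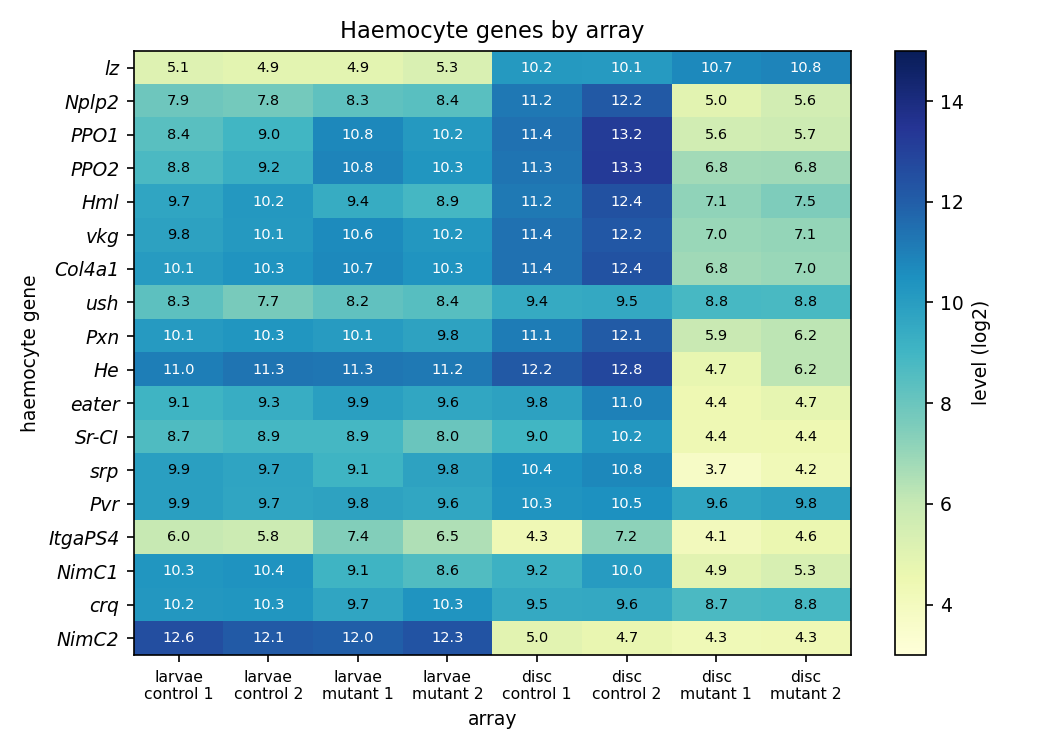
Log2 level of the 18 haemocyte genes on each of the 8 control and Jarid2 mutant arrays. Columns are arrays, rows are genes ordered by their difference in controls, and colour gives the level from 3 (light) to 15 (dark). Both mutant disc columns lie below the 6 other columns for 14 of the 18 genes; lz is dark in all disc columns and NimC2 light in all of them.

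In larvae the large excess was spread over 2231 genes, with the widest differences in genes of salivary gland, midgut and fat body. Of them 2223 were called in the same direction in the Jarid2 mutants, beside 46.4% of all genes, and 0 had the opposite sign. A share of 64.4% carried only a CG or CR number, beside 44.2% of all genes, and 3 such genes were within the 8 widest differences: CG18180 (-10.74), CG34166 (-10.61) and CG31789 (-10.25). Just inside the threshold lay CG34136 and Pkc53E, both at -3.0 when rounded, and just outside it CG4911 and CG7551, also at -3.0. On 1711 of the 2231 genes larval array 2 read above larval array 1, and the median gap over the 2231 was 0.85. Over all 11982 genes array 2 was higher on 4875, with a median gap of -0.07.

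Salivary gland genes gave the widest differences. The glue proteins are secreted by the larval salivary gland and fix the pupal case to its support. Sgs4 read 14.41 and 14.49 in larvae and 3.25 and 3.32 in disc cells. With disc values near the floor, the difference was -11.17 ± 0.10 (adjusted p = 4.9e-10), or 2299-fold as measured. Sgs3 read 14.92 and 14.98 in larvae and 4.23 and 3.99 in disc cells (-10.84 ± 0.15, adjusted p = 1.6e-09). Of 12 glue and related genes 11 were called higher in larvae and 10 were large, with a median of -8.27. Sgs7 (-8.36 ± 0.15), Sgs8 (-9.45 ± 0.16) and Sgs5 (-9.13 ± 0.10) had differences of the same order. The ecdysone-induced gene Eig71Ee read 14.69 and 14.64 in larvae and 5.38 and 5.19 in disc cells. Of the new-glue genes, ng1 and ng3 differed by -3.14 ± 0.49 and -6.47 ± 0.33, while ng4 (-0.32 ± 0.14, adjusted p = 0.072) was near the floor in both tissues and was not called, and its sign turned after quantile normalization and after median centring.

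Fat body and haemolymph genes were called higher in larvae in 15 of 19 cases (median -3.60). The fat body is the larval store for protein and lipid and the source of the haemolymph proteins. The storage protein receptor gene Fbp1 read 14.93 and 14.89 in larvae and 5.17 and 5.16 in disc cells (-9.75 ± 0.15, adjusted p = 2.7e-09), and Fbp2, from the alcohol dehydrogenase family, 15.05 and 15.05 in larvae and 4.74 and 4.76 in disc cells (-10.31 ± 0.10, adjusted p = 4.9e-10). The hexamerin gene Lsp2 read 14.86 and 14.91 in larvae and 5.42 and 5.51 in disc cells, a difference of -9.42 ± 0.10 (adjusted p = 7e-10), and the lipoprotein gene apolpp differed by -9.19 ± 0.18. The widest member of the list after Fbp2 was the lipase gene mag (-10.09 ± 0.16), whose larval tissue cannot be told from whole animals. The odorant-binding protein gene Obp99b read 15.17 and 15.24 in larvae and 10.76 and 9.64 in disc cells, and the tissue difference of -5.00 ± 0.30 in controls was -9.0 in mutants, with a called difference between the genotypes (adjusted p = 0.0023). Of the 2 fatty acid synthase genes, FASN1 was not called (0.09 ± 0.19, adjusted p = 0.71) and FASN2 was called higher in larvae (-0.44 ± 0.10, adjusted p = 0.005), with a sign that turned after quantile normalization and after median centring. Lsd-2, a lipid droplet protein, was higher in disc cells (0.45 ± 0.11).

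Digestive serine protease genes were called higher in larvae in 24 of 25 cases, 21 of them large, with a median of -7.41. They are secreted by the midgut. Jon65Aiv read 14.69 and 14.80 in larvae and 3.89 and 3.97 in disc cells (-10.81 ± 0.10, adjusted p = 4.9e-10), and the related yip7 14.60 and 14.80 in larvae and 4.38 and 4.41 in disc cells (-10.31 ± 0.11, adjusted p = 7e-10). Jon25Biii (-9.80 ± 0.16), Jon65Ai (-9.63 ± 0.13), Jon99Fi (-9.30 ± 0.19) and Jon66Ci (-9.28 ± 0.12) were other Jonah family genes with large differences. The array of trypsin genes ranged from alphaTry (-8.97 ± 0.17) to zetaTry (-4.79 ± 0.34) among the large members, and lambdaTry (-1.13 ± 0.45, adjusted p = 0.053) was not called here but was when the 4 control arrays were fitted alone (adjusted p = 0.0087), and its sign turned after median centring. Near-identical members of these families may share probes. Genes of digestive glycosidases and lysozymes were called in larvae in 19 of 21 cases (median -3.48), led by LysS (-8.21 ± 0.24) and the maltase gene Mal-A5 (-6.19 ± 0.18).

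Structural genes of the body wall and gut lining were mixed. Of 35 chitin genes 21 were called higher in larvae and 8 in disc cells, beside 46.1% and 33.3% of all genes. Of the 21, 14 were large, beside 18.6% of all genes (median -1.58, and 0.30 after median centring). The larval side held the lining of the gut: Peritrophin-15a, a chitin-binding protein of the peritrophic matrix, read 13.45 and 13.79 in larvae and 4.89 and 5.00 in disc cells (-8.68 ± 0.15, adjusted p = 3.7e-09), and the mucin gene Mur29B differed by -9.21 ± 0.24. The disc side included the chitin synthase gene kkv (1.80 ± 0.23), obst-B (1.94 ± 0.18), the deacetylase gene Cda4 (1.28 ± 0.17) and Gasp (1.20 ± 0.15). Cuticle protein genes were called higher in larvae in 70 of 104 cases and in disc cells in 9, and the median of -0.69 turned to 0.30 after quantile normalization and to 1.19 after median centring. The 21 with a large larval excess included Cpr78E (-8.24 ± 0.15), Cpr67B (-7.35 ± 0.27) and Pcp (-7.19 ± 0.14).

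Muscle genes were mostly on the larval side. Of 25 members 16 were called higher in larvae, 12 of them large, and 3 in disc cells (median -1.59, and 0.29 after median centring). Of all genes 46.1% were called in larvae, 18.6% were large there and 33.3% were called in disc cells. The troponin C gene TpnC73F read 13.30 and 13.38 in larvae and 4.45 and 4.58 in disc cells (-8.83 ± 0.16, adjusted p = 5e-09), and the Z-disc gene Zasp66 13.77 and 13.75 in larvae and 5.04 and 4.88 in disc cells (-8.80 ± 0.12, adjusted p = 1.6e-09). The thick filament gene Prm (-7.55 ± 0.35) and the myosin light chain gene Mlc1 (-7.47 ± 0.35) were close behind. The alpha-actinin gene Actn, whose product also crosslinks actin outside muscle, was called higher in disc cells (1.05 ± 0.23, adjusted p = 0.0041).

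Testis genes were called higher in larvae in 28 of 30 cases, 19 of them large, with a median of -4.08. Spermatocytes are present in the testes of late male larvae. The sperm gene ocn read 12.06 and 13.19 in larvae and 3.36 and 3.36 in disc cells, and the testis tubulin gene betaTub85D 11.74 and 12.98 in larvae and 4.29 and 4.20 in disc cells. Both were low in disc cells, and their differences were -9.27 ± 0.41 (adjusted p = 6.1e-07) and -8.11 ± 0.45 (adjusted p = 2.4e-06). The 2 larval arrays were not alike in this list: array 2 read higher on 29 of 30 genes. The median gap over the 30 was 1.03, beside -0.07 for all genes. The sexes of the larvae are not given in the labels, and their part in this gap was not tested. The germ cell gene vas was the member called higher in disc cells (0.96 ± 0.20), at 3.20 and 3.38 in larvae and 4.36 and 4.13 in disc cells.

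The same larval arrays showed high levels of duplicate genes of basic cell machinery. Oxidative phosphorylation as a whole was near balance, with 27 of 72 genes called in disc cells and 20 in larvae, but 15 of the 20 were large. Of all genes 33.3% and 46.1% were called. When the list was split by name, after the values were seen, 19 of 20 paralogues with an L suffix were called higher in larvae and 0 in disc cells (median -4.12). Of the other 52 members 1 was called in larvae and 27 in disc cells (median 0.32). COX4L, a paralogue of a cytochrome oxidase subunit, read 10.61 and 11.96 in larvae and 3.95 and 3.87 in disc cells (-7.38 ± 0.46, adjusted p = 4.2e-06). ATPsynCF6L, a paralogue of an ATP synthase coupling factor, differed by -6.38 ± 0.42. Among the standard subunits ATPsynC read 12.59 and 12.54 in larvae and 13.50 and 13.55 in disc cells (0.96 ± 0.10, adjusted p = 5.8e-05). Nuclear genes of mitochondrial proteins often have such duplicates, many of them known from the testis in Drosophila. On 19 of the 20 L-suffix genes larval array 2 read above array 1, and the median gap over the 20 was 1.06. The median gap was 1.03 in the testis list. Among large larval genes it was 1.18 for the L suffix, 1.17 for testis and 0.85 for all 2231. Cytosolic ribosomal protein genes repeated the split. Of 41, 22 were called in disc cells by small amounts and 8 in larvae, beside 33.3% and 46.1% of all genes. The large larval ones were the duplicates RpL10Aa, at 9.37 and 10.53 in larvae and 4.53 and 4.60 in disc cells (-5.38 ± 0.40, adjusted p = 1e-05), and RpS10a (-3.26 ± 0.28). In the proton pump, V-ATPase, 27 of 31 subunit genes were called in larvae (median -0.97, and 0.92 after median centring). Its 9 large members included duplicates such as Vha68-3, at 8.88 and 10.20 in larvae and 3.75 and 3.89 in disc cells (-5.72 ± 0.48, adjusted p = 1.9e-05). Most of the 27 were called without being large, and 24 members were called in larvae after quantile normalization. Vha16-1, the proteolipid subunit used in most tissues, was among the 3 members not called. It differed by 0.00 ± 0.12 (adjusted p = 0.99), or by -0.59 as the mean of its probe sets (adjusted p = 0.0046).

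**Figure D4:**
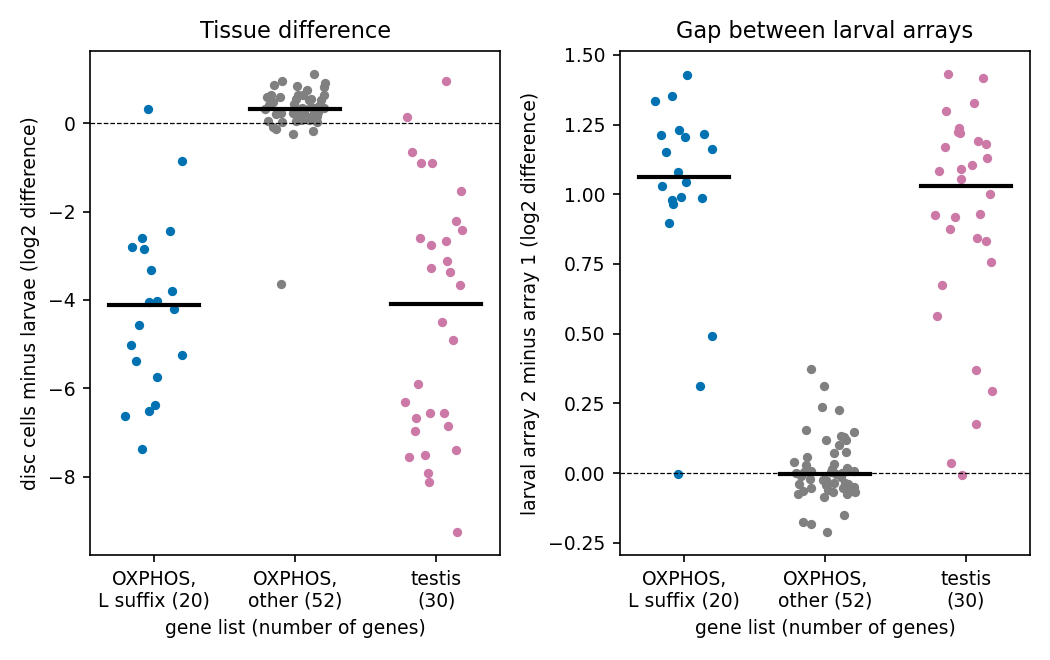
Log2 difference (control disc cells minus control larvae) of oxidative phosphorylation genes with and without an L suffix (left) and, for the same genes, the gap between larval array 2 and larval array 1 (right), with the 30 testis genes for comparison. Each point is a gene and each bar the median. The 20 L-suffix genes and the testis genes lie low on the left and high on the right; most of the other 52 genes lie near 0 on both, and 1 of them lies at -3.64 on the left.

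Of 81 cytochrome P450 genes 67 were called higher in larvae and 2 in disc cells, 32 and 1 of them large as deposited, and the median of -1.86 came to 0.02 after median centring. Cyp6d5 read 12.87 and 12.55 in larvae and 4.19 and 4.12 in disc cells (-8.55 ± 0.14, adjusted p = 2.9e-09); Cyp6g1, known for insecticide resistance, differed by -8.04 ± 0.12, and Cyp4g1, the oenocyte enzyme of hydrocarbon synthesis, by -6.22 ± 0.12. The large exception was Cyp4p2, which read 6.83 and 7.21 in control larvae and 10.34 and 10.30 in control disc cells (3.30 ± 0.20, adjusted p = 3.7e-06). In the mutants it read 9.88 and 10.35 in larvae and 10.56 and 10.39 in disc cells, so the control larvae were the low arrays, and the genotypes differed in the tissue contrast (adjusted p = 0.0013). Glutathione transferase genes were called in larvae in 16 of 34 cases and in disc cells in 9, beside 46.1% and 33.3% of all genes (median -0.14; 0.46 after quantile normalization), and UDP-glycosyltransferase genes in 23 and 6 of 35 (median -1.14, and 0.74 after median centring).

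Antimicrobial peptide genes were called higher in larvae in 12 of 13 cases (median -3.02). Drosomycin, Drs, read 13.49 and 13.49 in larvae and 9.32 and 10.95 in disc cells (-3.35 ± 0.45, adjusted p = 0.00026), well above the floor in both tissues. In mutant disc cells it read 5.27 and 5.79, and the difference between the genotypes was called (adjusted p = 0.0083). Renal genes followed the larval side: in the list of Malpighian tubule and hindgut genes 8 of 10 were called in larvae, and the cold-induced gene Fst read 13.05 and 13.57 in larvae and 4.33 and 4.34 in disc cells (-8.98 ± 0.22, adjusted p = 1.9e-08).

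Hormone genes were higher in larvae as deposited, most of them by moderate amounts. Of 27 neuropeptide and peptide hormone genes 21 were called in larvae and 2 in disc cells, 6 and 1 of them large. Of all genes 46.1% and 33.3% were called, and 18.6% and 0.442% were large. The median of -1.62 became -0.15 after quantile normalization and 0.26 after median centring. NPF, a feeding peptide of brain and gut, read 7.37 and 7.40 in larvae and 3.43 and 3.29 in disc cells (-4.03 ± 0.14, adjusted p = 1.7e-07), and Akh, the adipokinetic hormone of the corpora cardiaca, 9.35 and 8.82 in larvae and 5.71 and 5.78 in disc cells (-3.34 ± 0.21, adjusted p = 4.5e-06). Myosuppressin, Ms, read 9.04 and 8.70 in larvae and 4.30 and 6.85 in disc cells, with the disc arrays more than 2 units apart. The large exception on the disc side was Nplp2, which is also a member of the haemocyte list. Among ecdysteroid synthesis genes, 6 of 10 were called in larvae, beside 46.1% of all genes, and the median of -1.75 turned to 0.14 after median centring. Those called included the 20-hydroxylase gene shd, which read 10.81 and 10.87 in larvae and 5.60 and 5.17 in disc cells (-5.46 ± 0.19, adjusted p = 1.5e-07), and the prothoracic gland gene spok (-4.89 ± 0.21). Its paralogue spo, known for embryonic and ovarian synthesis, was higher in disc cells by 0.98 ± 0.15, at a low level in both tissues.

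Chemosensory genes were mostly at the floor. Of 165 odorant, gustatory and ionotropic receptor genes, 99 lay below the lower quartile in both tissues. In larvae 78 were called and in disc cells 13, but after quantile normalization the counts were 12 and 78 (31.6% and 47.8% of all genes were called), and the median turned from -0.34 to 0.35, so no direction is given for the family. The odorant-binding proteins, many of which are abundant outside sense organs, were called in larvae in 34 of 47 cases, 11 of them large (median -1.27, and 0.62 after median centring). As deposited 46.1% of all genes were called in larvae and 18.6% were large there. Obp99c read 13.28 and 13.03 in larvae and 4.57 and 4.67 in disc cells (-8.54 ± 0.13, adjusted p = 2.7e-09) and Obp56d 14.63 and 14.87 in larvae and 7.39 and 6.76 in disc cells (-7.68 ± 0.32, adjusted p = 4.6e-07). Obp99a was higher in disc cells (1.33 ± 0.17, adjusted p = 0.00021), at 11.49 and 11.64 in larvae and 12.94 and 12.85 in disc cells.

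**Figure D5:**
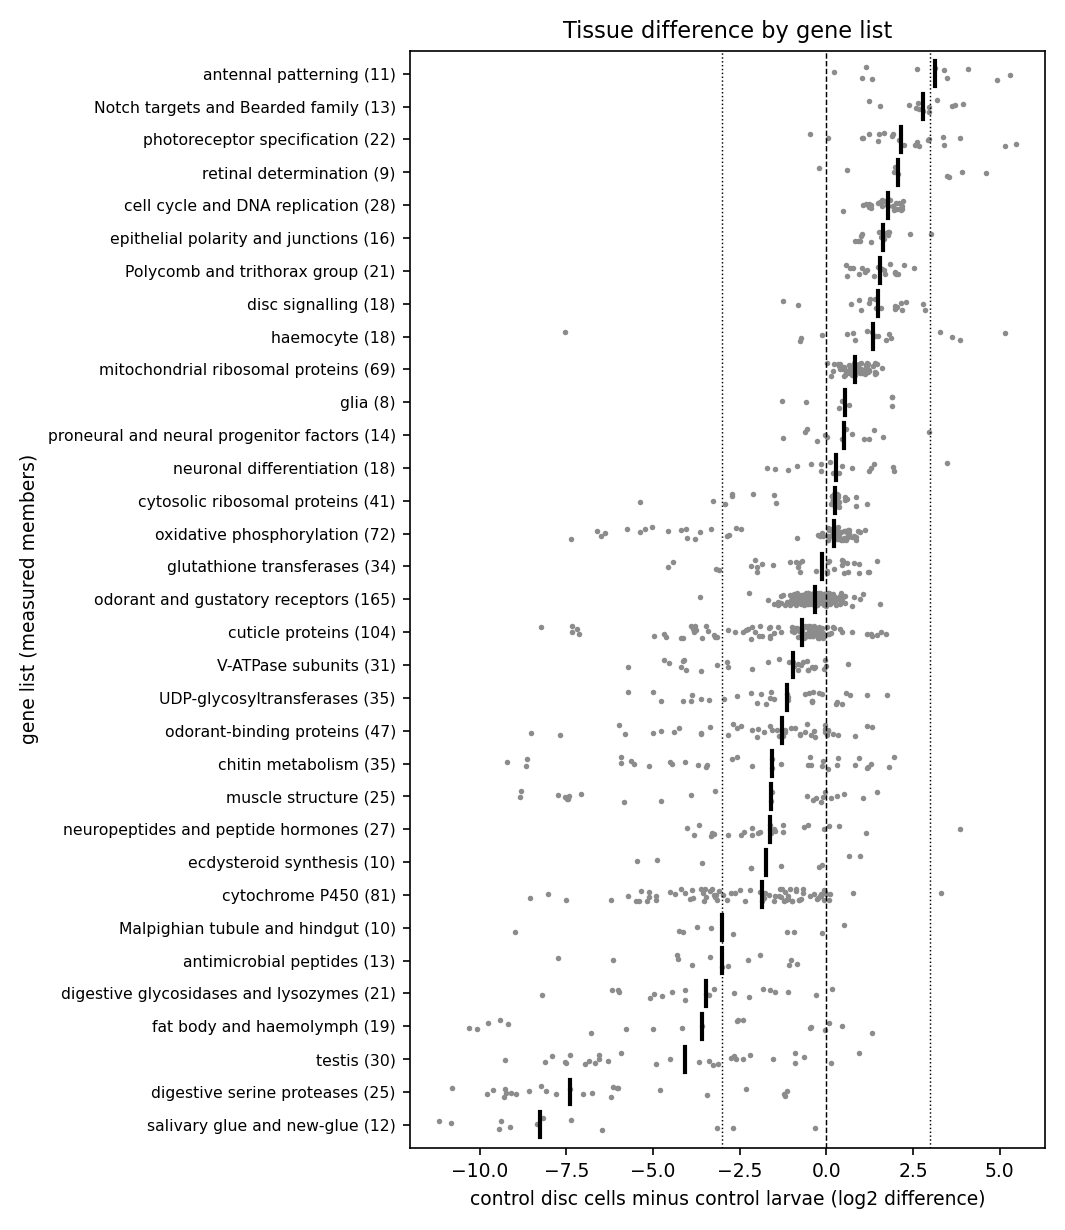
Log2 difference (control disc cells minus control larvae) of each measured member of 33 gene lists, ordered by the list median. Grey points are members, black bars the medians, the dashed line 0, and the dotted lines a difference of 3 in each direction. The medians of the patterning and cell cycle lists lie above 0. Cell cycle members keep a narrow range, from 0.48 to 2.21, and patterning lists are wider, such as photoreceptor specification from -0.48 to 5.47. Lists of larval organs reach far below 0. Medians between -1.88 and 0 turn positive after median centring.

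A list of 21 heat shock and JNK response genes, of which 10 were measured, was added after the values were seen. Of the 10, 6 were called higher in disc cells and 2 in larvae, beside 33.3% and 46.1% of all genes (median 0.77). Hsp68, an inducible chaperone, read 10.03 and 10.85 in larvae and 13.11 and 12.97 in disc cells (2.60 ± 0.30, adjusted p = 9.3e-05), and the co-chaperone genes DnaJ-1 and stv differed by 1.88 ± 0.14 and 1.82 ± 0.16. Both disc arrays of Hsp68 were above both larval arrays. In the mutants the differences were 0.73 for Hsp68, 0.90 for DnaJ-1 and 0.40 for stv, and the difference between genotypes was called for DnaJ-1 (adjusted p = 0.046) and stv (adjusted p = 0.018) and not for Hsp68 (adjusted p = 0.068). The DnaJ-1 levels were 13.64 and 13.56 in control and 13.48 and 13.46 in mutant disc cells, and 11.70 and 11.74 in control and 12.36 and 12.78 in mutant larvae, so the larval arrays were the ones that differed more between the genotypes. Leaving out mutant disc array 2 gave adjusted p = 0.17 for DnaJ-1 and 0.079 for stv, and the DnaJ-1 call was also lost after either scaling and under the replicate block (adjusted p = 0.083, 0.11 and 0.082). The JNK pathway genes puc (-0.64 ± 0.15) and Jra (-0.53 ± 0.11) were called higher in larvae and turned positive after median centring. The part of the warm trypsin step in these values was not tested.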

How the data were processed

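The authors deposited 1 log2 expression value per probe set and array for 10 Affymetrix arrays of Drosophila melanogaster. The submitters' processing notes name limma 3.4.3; for background correction, summarization and normalization no step is stated (not given in the sources used here). All log2 values were used as deposited. Of 18952 probe sets, 183 control probe sets were left out and 18769 were tested. By GEO's platform annotation 13647 had 1 gene symbol, 402 several and 4720 none, and 13544 of the 13647 matched the RefSeq gene table of release 6. Each of the resulting 11982 genes was read from 1 probe set, the one whose mean over all arrays was highest.

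The 5 groups were fitted together, without covariates, in limma 3.58.1 under R 4.3.3 with moderated variances (lmFit, eBayes; 5 residual and 2.78 prior degrees of freedom). Contrasts were control disc cells minus control larvae, the same in Jarid2 mutants, and the difference between these 2. Tests were two-sided, with Benjamini-Hochberg adjustment over all 18769 probe sets and a threshold of 0.05; large means called and at least 3 on the log2 scale. A sum of markers is the log2 of their summed linear values. Gene counts and lists were drawn up with pandas 2.3.3 and numpy 2.4.6 in python 3.11.15, and plots with matplotlib 3.10.9. The fit was tested on simulated data.

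Named genes were the 15 widest called differences each way among genes with a name and with no overlap between arrays, 3 each way among genes known by number only, every member of a list of up to 12, the 5 highest and 5 lowest of longer lists, the markers, Jarid2 and E(z); some members are given as counts only, and other named genes were chosen after their values were seen. The groups compared and the gene lists were chosen with earlier results of these data known, and 5 lists were added after the values were seen. The number of arrays, 2 per group, limits the precision. Alternatives were quantile normalization, median centring, percentile ranks, removal of the dimmest 30% of probe sets, a robust prior, a trended prior, a fit limited to the compared groups, array weights, a replicate block, the mean of a gene's probe sets, thresholds of 1 and 5, and leaving out each array.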

Additional observations from a re-analysis of the deposited data

Results flagged for a closer look

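The tissue difference of 22 named genes differed between controls and Jarid2 mutants in limma's test of the 2 contrasts (439 of 11982 genes, 3.66%, were called). The values below are the control difference minus the mutant difference, on the log2 scale; 13 of the 22 kept direction and call under every alternative run.

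Among blood cell genes it was 8.41 for PPO1, 7.05 for PPO2, 6.21 for srp, 5.33 for Col4a1, 5.25 for vkg and 3.69 for Hml. Those of PPO2 and Hml were not called without mutant larval array 1 (adjusted p = 0.059 and 0.13), and that of Hml also failed after quantile normalization (adjusted p = 0.11) and without 5 other single arrays (adjusted p between 0.072 and 0.12). Nplp2, also in the haemocyte list, gave 6.96. Other genes with a large excess in control disc cells that were low in mutant disc cells gave 7.14 for mthl6, 5.38 for CG15550, 5.19 for CG30087 and 4.87 for CG15115. The genotypes also differed by 4.61 for the antimicrobial peptide gene Drs, 4.00 for Obp99b and 2.94 for Cyp4p2.

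The larval excess was smaller in mutants for spok, at -2.74, and for the P450 gene Cyp6d5, at -1.14. The disc side was more favoured in mutants for Jarid2, at -2.43, where the deposited Jarid2 level was 4.19 and 4.26 in mutant larvae and 7.64 and 6.80 in mutant disc cells; without mutant larval array 1 the Jarid2 value had an adjusted p of 0.051. The disc excess of the eye genes sens (-1.38) and so (-0.72) was wider in mutants, and values of the opposite sign were found for the stress genes stv (1.43), DnaJ-1 (0.98) and Jra (0.94). The calls of these 6 genes were lost without single arrays, with adjusted p up to 0.17 for sens, 0.18 for so, 0.10 for Cyp6d5, 0.079 for stv, 0.17 for DnaJ-1 and 0.10 for Jra. With all arrays kept, quantile normalization ended the calls of sens, so, Cyp6d5 and DnaJ-1 (adjusted p = 0.11, 0.13, 0.061 and 0.083), and median centring those of so and DnaJ-1 (adjusted p = 0.12 and 0.11). The replicate block ended those of so, Cyp6d5, DnaJ-1 and Jra (adjusted p = 0.064, 0.052, 0.082 and 0.052), and a fit of the compared groups alone those of sens, so and DnaJ-1 (adjusted p = 0.057, 0.063 and 0.072). The call of so was also lost with array weights and with a trended prior (adjusted p = 0.060 and 0.071).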

How the results depend on the processing

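The number of arrays and the unsettled scale limit these results. Quantile normalization and median centring turned small differences, so directions of families with medians near 0 are not settled, and values near the floor carry no order. Of 176 named genes, 160 kept their direction under every alternative, and of the 104 with a large difference 103 kept direction and call; the exception was Ms, at -1.41 after median centring (adjusted p = 0.056).

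Median centring gave 8426 called genes on the disc side and 2624 on the larval side (1617 and 989 large), and in mutants 8353 and 2680 (1881 and 911 large). Quantile normalization gave 130 large disc genes in place of 53, and in mutants 142 and 1505 in place of 45 and 2268. With a threshold of 1 the large counts were 1922 and 4049, and with 5 they were 3 and 927. The other alternatives kept the control counts within 1.5 times, and the mean of a gene's probe sets gave 46 and 2182. Of the named genes 15 had 2 or more probe sets, and for 5 of these the probe sets differed in direction. Among genes with 2 or more probe sets this held for 2 of 8 large disc genes and 15 of 120 large larval genes. Leaving out 1 array gave 44 to 78 large disc genes and 2089 to 2349 large larval genes in controls, and 40 to 56 and 2187 to 2345 in mutants; called genes ranged from 3533 to 3983 and from 5096 to 5528 in controls, and from 3642 to 4116 and from 5128 to 5629 in mutants. A lone array left in a group was taken to vary like the other groups. The genotype differences were 439 genes and 244 to 429 without 1 array: 272 without control disc array 2, 271 and 246 without mutant disc arrays 1 and 2, and 244 and 271 without mutant larval arrays 1 and 2. After quantile normalization there were 315.

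The replicate block left the large counts at 53 and 2231, with 3919 and 5465 genes called and 348 genotype differences. Deviations of same-numbered control disc and larval arrays correlated at 0.00517 across probe sets, so the numbers were not taken to pair the arrays.

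After median centring the sign turned for Dr (0.64), FASN2 (1.44), Jra (1.35), Scr (1.45), VAChT (0.17), lambdaTry (0.75), ng4 (1.57), pros (1.40), puc (1.24), tio (1.67), trp (1.82) and upd2 (1.07), and after quantile normalization for FASN2 (0.74), Dr (0.47), Scr (0.98), ng4 (0.20), tio (1.40), trp (0.72) and upd2 (0.73). As percentile ranks these 7 turned by 10.87, 4.58, 8.92, 3.17, 15.41, 12.09 and 8.65 percentile points. Without 1 array the uncalled differences of FASN1 (-0.20 to 0.37), Vha16-1 (-0.059 to 0.063), bab1 (-0.072 to 0.50), edl (-0.35 to 0.47) and trp (-0.25 to 0.12) changed sign, and Vha16-1 was -0.59 as the mean of its probe sets. The causes were not tested.

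After quantile normalization the larval and disc counts, respectively, moved by over 1.5 times from 70 and 9 to 31 and 48 for cuticle proteins, from 78 and 13 to 12 and 78 for chemosensory receptors, from 34 and 3 to 21 and 14 for odorant-binding proteins and from 16 and 9 to 10 and 16 for glutathione transferases. For neuronal genes they moved from 5 and 9 to 1 and 15, for proneural genes from 3 and 6 to 0 and 11, for glia from 2 and 4 to 1 and 7, for phototransduction genes from 7 and 5 to 4 and 10 and for neuropeptides from 21 and 2 to 8 and 4. Disc counts moved from 2 to 15 for cytochrome P450 genes, and antimicrobial peptide genes on the larval side from 12 to 8.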

Other observations

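Some genes with a large larval excess lay beside each other in the genome. In the gene order of the RefSeq table, counting measured genes alone, 155 runs of at least 3 neighbours were all higher in larvae by 8-fold or more, and they held 599 (26.8%) of the 2231 genes; 0 such runs were found on the disc side. No chance level was computed for these runs, and 18.6% of all genes had a large larval excess.

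The longest run, on chromosome arm 3R, held 11 genes from Pif2 to Ass, with a median difference of -5.29. Its gene sowi read 9.37 and 10.79 in larvae and 3.09 and 3.31 in disc cells, and CG15177 9.56 and 10.81 in larvae and 3.92 and 3.85 in disc cells. The median gap between the larval arrays was 1.23 over the run, beside 1.03 in the testis list and 0.85 over the 2231 large larval genes. On 10 of the 11 larval array 2 read above array 1 by more than 0.5. Ass was the exception, at 8.43 and 8.45 in larvae.

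A run of 9 genes on 3L included Ssk, which encodes a protein of smooth septate junctions, and obst-F, of a family of chitin-binding proteins, with a median of -6.88. In it CG6933 read 13.40 and 13.61 in larvae and 3.58 and 3.49 in disc cells and CG7290 13.69 and 13.68 in larvae and 4.27 and 4.29 in disc cells, so the larval arrays lay close to each other here. A run of 8 genes on 2R was the trypsin cluster, from zetaTry to iotaTry, with a median of -6.10; epsilonTry read 13.70 and 13.96 in larvae and 5.68 and 5.51 in disc cells. Another, of 6 genes on 3R, held Antp beside the testis genes dj, djl and Mst84B. These testis genes read 7.08 and 8.49, 8.12 and 9.56 and 9.02 and 10.20 in larvae. Antp was read here from 1 of 3 probe sets, whose differences ranged from -3.61 to -0.26. Near-identical neighbours may share probes, and its part in these runs was not tested.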
